A study of Homo sapiens with 24 samples.

Results

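The ephrins, semaphorins and other axon guidance genes comprise 56 genes of 12 classes: Eph A and Eph B receptors, ephrin A and ephrin B ligands, secreted class 3 and membrane-bound semaphorins, plexins, neuropilins, slits, robos, netrins and netrin receptors. The genes were taken as a set by name, with earlier results of these data known. Each was read from the brightest transcript cluster carrying its symbol, a transcript cluster being all probes that the array assigns to 1 locus. In this way 55 of the 56 genes were found among 25324 clusters with a gene symbol, each on a cluster with no other symbol, and EPHB2 was not matched. They were measured in H9 cells, an established human embryonic stem cell (hESC) line, which carried a lentiviral GIPZ vector with an shRNA against RUNX1 (shRUNX1) or a non-silencing shRNA (shNS). The cells were undifferentiated (0 hr) or had been in medium with fetal bovine serum for 8, 24 or 72 hr, a course the study used for early mesendodermal differentiation. Both vectors were selected with puromycin in the first passages after infection, and shRUNX1 rests on 1 shRNA clone. There were 3 arrays in each of the 8 groups, 24 in all, and uninfected cells were not analysed here.

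Eph receptors are tyrosine kinases that bind ephrins on the surface of a neighbouring cell, and both partners can signal, which sorts cells and sets boundaries between tissues. Ephrin A ligands are held by a lipid anchor and ephrin B ligands span the membrane. Semaphorins signal through plexins, and the secreted class 3 semaphorins generally need a neuropilin as co-receptor. Slits repel cells and axons through robos, while netrins attract through DCC and repel through the UNC5 receptors. These families were named for the growing axon, but they also act in gastrulation movements, somites and blood vessels.

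The values were normalized log2 signals, and array medians over all clusters with a symbol lay between 6.21 and 6.34. Replicate arrays correlated across clusters at a Pearson r of 0.987 to 0.997. The cluster that reports RUNX1, the targeted gene, also carries a neighbouring transcript. Its signals in shRUNX1 cells were 5.85, 5.99 and 5.81 at 0 hr, 6.25, 6.41 and 6.22 at 8 hr, 6.09, 6.47 and 6.24 at 24 hr and 5.95, 6.45 and 5.99 at 72 hr. The shNS cells had 5.97, 5.90 and 5.89 at 0 hr, 6.46, 6.65 and 6.29 at 8 hr, 6.62, 6.54 and 6.73 at 24 hr and 6.58, 6.53 and 6.14 at 72 hr. The arms lay apart without overlap at 24 hr, where shRUNX1 minus shNS was −0.37 ± 0.13 (SE, adjusted p = 0.184 from limma, two-sided exact permutation p = 0.1, the smallest that 3 against 3 can give), and RUNX1 was not called between the arms at any time. As a check on the cell type, the mean linear signal of marker sets, given as log2, was compared at 0 hr. That of 6 pluripotent markers lay between 13.44 and 13.53 in shRUNX1 cells and between 13.22 and 13.52 in shNS cells. That of 4 neural crest markers, the lowest set, lay between 5.33 and 5.44 in shRUNX1 cells and between 5.34 and 5.84 in shNS cells. The mesenchymal, endothelial and neural sets, given below, lay between the pluripotent and neural crest sets.

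In the time courses, guidance genes changed in both directions and more of them were called lower than higher. Calls required a limma p under 0.05 after Benjamini-Hochberg adjustment over all 25324 features, and a fold change over 1.5 (0.585 on the log2 scale). In shRUNX1 cells, 14 of 55 members were called at 8 hr against 0 hr (4 higher and 10 lower, while 6.82% of all features were called, 3.73% higher and 3.09% lower), 19 at 24 hr (8 higher and 11 lower, all features 10.7%, 5.05% and 5.62%) and 17 at 72 hr (7 higher and 10 lower, all features 7.34%, 3.62% and 3.72%). In shNS cells, 13 were called at 8 hr (4 higher and 9 lower, all features 8.31%, 4.59% higher and 3.72% lower), 21 at 24 hr (9 higher and 12 lower, all features 15.6%, 7.58% and 7.97%) and 21 at 72 hr (8 higher and 13 lower, all features 14.8%, 7.08% and 7.73%). As shares, 25.5, 34.5 and 30.9% of the members were called in shRUNX1 cells and 23.6, 38.2 and 38.2% in shNS cells. The shares of all features depend on dim features. With these left out, 12.9, 19.8 and 13.6% of 12718 features were called in shRUNX1 cells. In shNS cells 15.7, 27.8 and 26.5% were called. Of the 55 members 37 stayed in that fit, while the members' shares given here are of all 55. The median change over the members was −0.17, −0.12 and −0.10 at 8, 24 and 72 hr in shRUNX1 cells, where the median of all features was −0.01, −0.02 and −0.02. In shNS cells the members' median was −0.10, −0.12 and −0.07, where that of all features was 0.01, 0.01 and 0.01. The median size of the change, whatever its sign, was 0.33, 0.36 and 0.38 over the members and 0.13, 0.15 and 0.15 over all features in shRUNX1 cells, and 0.30, 0.43 and 0.38 over the members and 0.14, 0.18 and 0.17 over all features in shNS cells. Without shRUNX1 replicate 3 of 0 hr, 11 members were called at 72 hr in shRUNX1 cells in place of 17, and 5.67% of all features in place of 7.34%. The 3 comparisons of each arm share its 0 hr arrays, so their counts are not independent of each other.

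**Figure D1:**
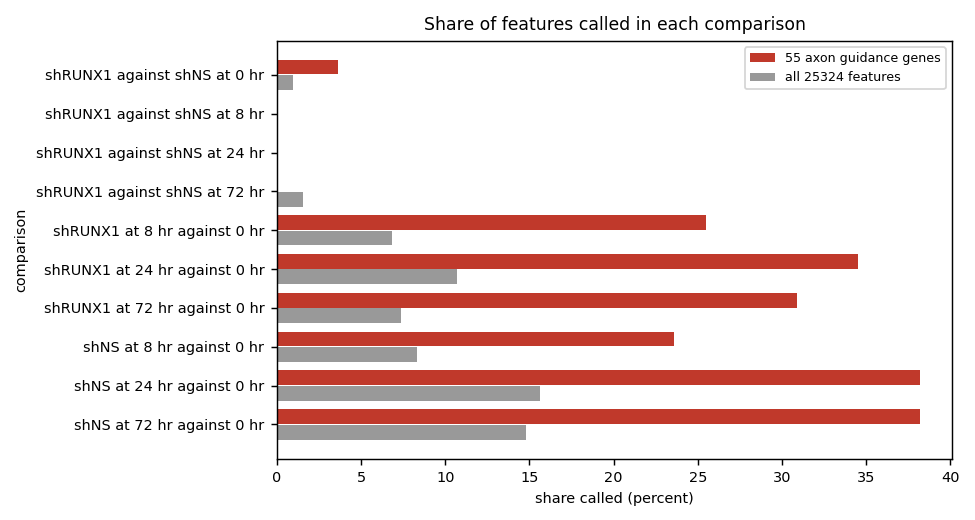
Share of features called in each comparison (x axis, percent), for the 55 axon guidance genes (red) and all 25324 features (grey). In the 6 time courses 23.6 to 38.2% of the members were called, and between the arms 3.64% at 0 hr and none later.

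The plot of the shares called sets both sets of bars side by side for 10 comparisons. The arms, which share no arrays, called overlapping members. At 8 hr 12 members were called in the same direction in both arms, which is 85.7% of those called in shRUNX1 cells and 92.3% of those called in shNS cells. At 24 hr there were 15 (78.9% and 71.4%) and at 72 hr 13 (76.5% and 61.9%), and no member was called higher in one arm and lower in the other. Of all features called, 71, 82.5 and 79.1% of those in shRUNX1 cells at 8, 24 and 72 hr and 58.2, 56.6 and 39.2% of those in shNS cells were called in the same direction in both arms, and 0 in opposite directions. Over the 3 later times 23 members were called in each arm (41.8%, where 14.2% of all features were in shRUNX1 cells and 19.7% in shNS cells). Of the members 17 were called in both (30.9%, all features 11.4%) and 26 in neither (47.3%, all features 77.5%).

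Between the arms few members were called. At 0 hr 2 of 55 were called, EPHA3 lower and UNC5D higher in shRUNX1 cells (0.971% of all features called, 0.446% lower and 0.525% higher). At 8, 24 and 72 hr 0 members were called with limma, where 0.00395%, 0.079% and 1.54% of all features were. Of the members, 18, 3, 14 and 14 had an unadjusted limma p under 0.05 at 0, 8, 24 and 72 hr, 32.7, 5.45, 25.5 and 25.5% of them, and of all features 21, 8.42, 16.3 and 20.1% did. The change of the arm difference from 0 hr to 8, 24 or 72 hr was not called for any member (0.00395%, 0% and 0.00395% of all features called), and 2, 6 and 13 members had an unadjusted p under 0.05 (5.9, 7.54 and 13.9% of all features). With each array of 0 hr left out the count there was 5 without shRUNX1 replicate 2 (all features 3.58%) and 1 without shRUNX1 replicate 1 or 3 (all features 0.0434 and 0.0395%). It was 1, 0 and 4 without shNS replicate 1, 2 and 3 (all features 0.0987, 0.0355 and 1.61%). At 24 hr it was 2 without shRUNX1 replicate 2 (all features 0.75%) or shNS replicate 3 (all features 1.56%). Of the experiment letters in the labels, which are not explained, A, B and C mark shNS replicates 1, 2 and 3 and C, D and E mark those of shRUNX1, so that letter C alone holds both arms. Within it, at 0 hr, EPHA3 had 6.57 in shRUNX1 cells, against 7.56 in shNS cells, and UNC5D had 10.14 in shRUNX1 cells, against 9.50 in shNS cells. A fit with a block by letter therefore takes the arm difference averaged over the times from letter C alone, that is shRUNX1 replicate 1 and shNS replicate 3. How that difference varies between the times is taken from arrays of all letters. The letters were not shown to be batches. The methods state independent experiments, but the labels do not say that replicates were separate cultures, so p-values measure the spread between these samples.

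**Figure D2:**
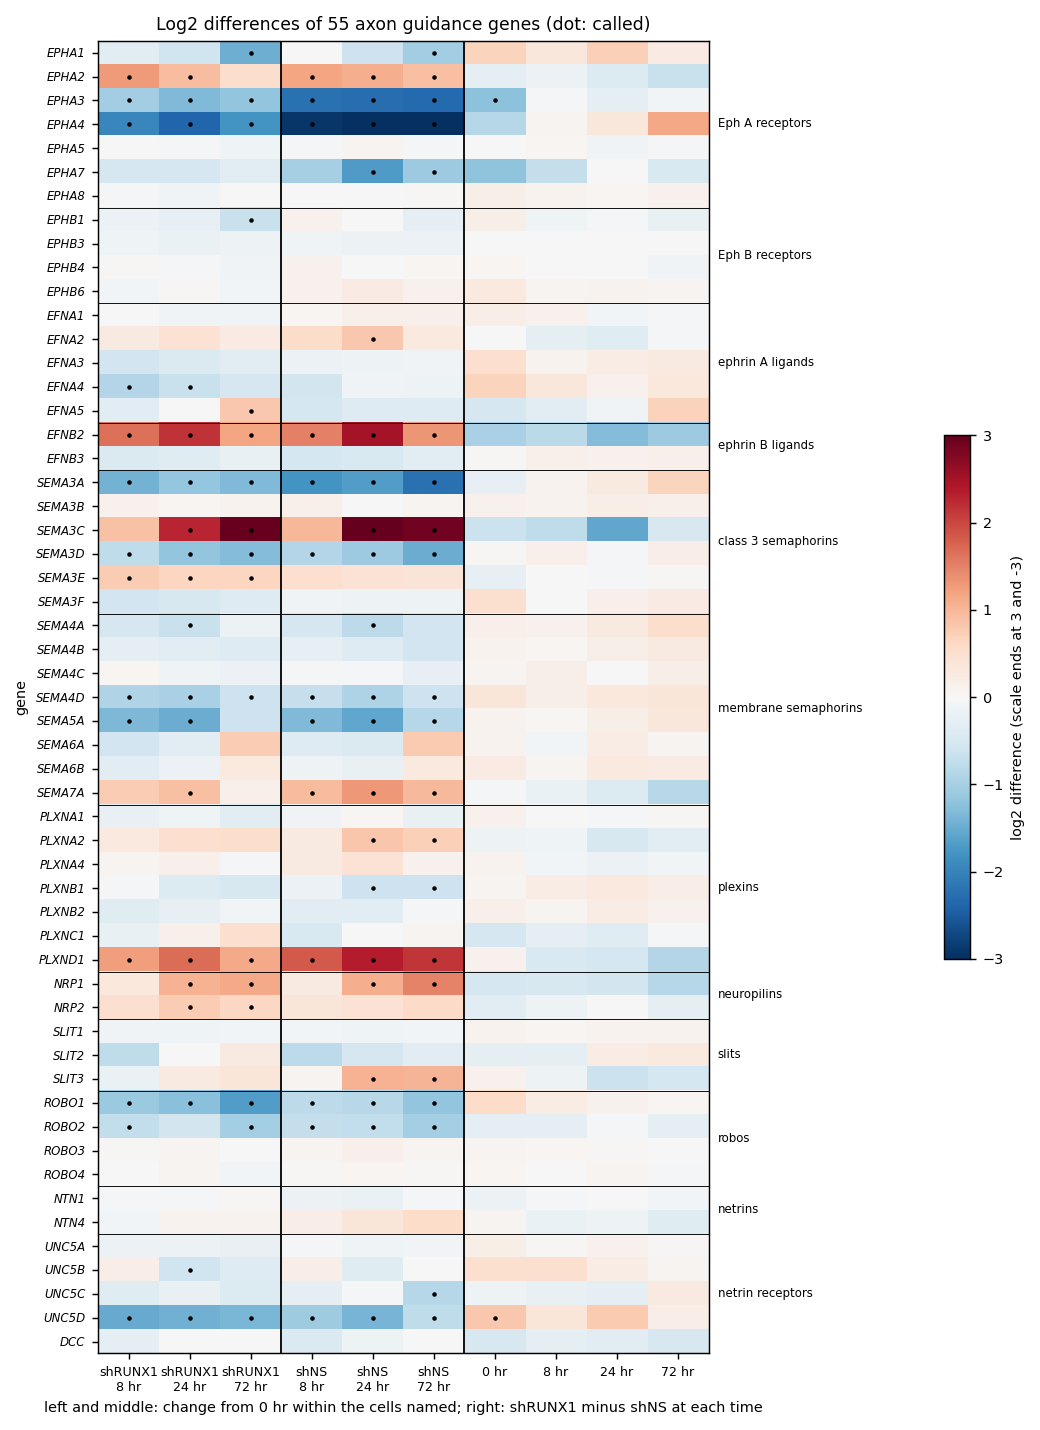
Log2 differences of the 55 measured genes (rows, grouped by class), as change from 0 hr in shRUNX1 cells (left 3 columns), change from 0 hr in shNS cells (middle 3) and shRUNX1 minus shNS at each time (right 4). Red is higher, blue is lower, and a dot marks a called difference, of which EPHA3 and UNC5D at 0 hr are the only ones between the arms.

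The map of log2 differences shows at least 1 called time course in every class but the netrins, which attract or repel by the receptor they meet, while the 4 Eph B receptors had 1 call, EPHB1 at 72 hr in shRUNX1 cells (−0.67).

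RUNX1 is a transcription factor known to bind the letters TGTGGT and TGCGGT. The 250 bases before the start site were taken from RefSeq (GRCh38.p14) and searched for both hexamers on both strands. They occur in 13.9% of 72 member promoters and in 16.3% of all 35116 promoters, and by gene in 9 of the 47 member genes with an entry (19.1%) and in 19.3% of all genes. The promoters of 4 genes are shown because the results below turn on EPHA3 and EFNB2, which had no hexamer there, and because EFNA4 and SEMA7A, whose arm differences of 0.67 at 0 hr and −0.83 at 72 hr were not called, had 2 and 1. Each is printed 5′ to 3′ on the strand of the gene, with the hexamers in capitals, those on the opposite strand appearing as ACCACA. EFNA4 has them starting 171 and 127 bases and SEMA7A 207 bases before the start site. SEMA7A has 2 promoters with 1 hexamer in all, and the promoter that holds it is shown. UNC5D, also called at 0 hr, had no promoter entry. The windows are chr3:89107371-89107620 (plus strand), chr13:106535663-106535912 (minus), chr1:155063490-155063739 (plus) and chr15:74433959-74434208 (minus). A match is a match of letters and not a site shown to be bound.
EPHA3: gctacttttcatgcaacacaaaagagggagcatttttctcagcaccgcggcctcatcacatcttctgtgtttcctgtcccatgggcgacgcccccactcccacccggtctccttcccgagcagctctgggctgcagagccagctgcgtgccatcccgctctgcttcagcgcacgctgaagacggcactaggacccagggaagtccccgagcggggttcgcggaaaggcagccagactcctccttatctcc
EFNB2: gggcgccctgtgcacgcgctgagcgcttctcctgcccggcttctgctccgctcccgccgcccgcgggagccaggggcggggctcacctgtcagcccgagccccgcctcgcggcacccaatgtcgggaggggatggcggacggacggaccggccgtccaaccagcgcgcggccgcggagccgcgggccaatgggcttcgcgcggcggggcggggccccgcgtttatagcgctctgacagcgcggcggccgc
EFNA4: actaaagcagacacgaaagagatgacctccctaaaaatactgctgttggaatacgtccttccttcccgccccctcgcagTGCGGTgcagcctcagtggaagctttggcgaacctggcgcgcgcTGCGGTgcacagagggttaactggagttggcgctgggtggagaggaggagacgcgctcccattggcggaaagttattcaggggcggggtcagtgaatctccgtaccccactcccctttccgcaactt
SEMA7A: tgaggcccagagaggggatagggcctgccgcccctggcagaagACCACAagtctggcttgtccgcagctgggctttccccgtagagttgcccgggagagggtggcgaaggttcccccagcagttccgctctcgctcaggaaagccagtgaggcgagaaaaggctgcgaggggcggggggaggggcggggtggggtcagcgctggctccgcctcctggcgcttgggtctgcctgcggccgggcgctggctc

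Of the Eph A receptors, EPHA4 and EPHA3 fell in both arms and EPHA2 rose. EPHA4, a receptor that binds ephrins of both classes, had signals of 9.86, 9.20 and 9.55 at 0 hr, 7.36, 7.09 and 8.29 at 8 hr, 7.80, 6.47 and 7.25 at 24 hr and 8.45, 6.82 and 7.99 at 72 hr in shRUNX1 cells. In shNS cells its signals were 10.51, 10.60 and 10.11 at 0 hr, 7.17, 7.41 and 7.87 at 8 hr, 7.15, 6.72 and 6.65 at 24 hr and 6.67, 6.23 and 6.89 at 72 hr. All 18 later arrays lay under all 6 arrays of 0 hr. The change at 8, 24 and 72 hr was −1.96, −2.37 and −1.79 in shRUNX1 cells (SE 0.38 each) and −2.92, −3.56 and −3.81 in shNS cells, so that at 72 hr EPHA4 was 3.45-fold lower in shRUNX1 cells and 14.0-fold lower in shNS cells than at 0 hr. The change of the arm difference to 72 hr was 2.02 ± 0.53 (unadjusted p = 0.00117, adjusted p = 0.115) and was not called. With a block by experiment letter it was called (2.02, adjusted p = 0.0477), as was the arm difference at 72 hr (1.46, adjusted p = 0.0265). In that fit the arm difference averaged over the times rests on letter C, the only letter in both arms.

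EPHA3, a receptor of ephrin A ligands, had signals of 6.57, 6.89 and 6.58 at 0 hr, 5.74, 5.43 and 5.73 at 8 hr, 5.54, 5.16 and 5.33 at 24 hr and 5.39, 5.38 and 5.71 at 72 hr in shRUNX1 cells. The shNS cells had 7.87, 8.27 and 7.56 at 0 hr, 5.62, 5.75 and 5.63 at 8 hr, 5.98, 5.66 and 5.21 at 24 hr and 5.77, 5.59 and 5.37 at 72 hr. At 0 hr every shRUNX1 array lay under every shNS array, and the arms overlapped from 8 hr on. EPHA3 was 2.33-fold lower in shRUNX1 cells at 0 hr (−1.22 ± 0.18, adjusted p = 0.00474), and the call ended without shNS replicate 2 of 0 hr (−1.04, adjusted p = 0.0514) and with the methods' ANOVA (adjusted p = 0.289). It held with the block by letter (−0.95, adjusted p = 0.0187). It fell by 1.05, 1.34 and 1.19 at 8, 24 and 72 hr in shRUNX1 cells and by 2.24, 2.28 and 2.32 in shNS cells, to signals under the median of all values with a symbol (6.26). The change of the arm difference was 1.19 at 8 hr, 0.95 at 24 hr and 1.14 at 72 hr (adjusted p = 0.834, 0.55 and 0.0842), and that to 72 hr was called with the block by letter (1.14, adjusted p = 0.0468).

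EPHA7, also an ephrin receptor of the A class, had signals of 10.33, 9.25 and 10.15 at 0 hr, 9.23, 9.56 and 9.46 at 8 hr, 9.60, 8.93 and 9.71 at 24 hr and 10.44, 8.78 and 9.50 at 72 hr in shRUNX1 cells. The shNS cells had 11.05, 11.79 and 10.49 at 0 hr, 9.78, 10.51 and 10.07 at 8 hr, 9.71, 9.64 and 8.87 at 24 hr and 10.43, 10.16 and 9.49 at 72 hr. At 0 and 8 hr the shRUNX1 arrays lay under the shNS arrays, with differences of −1.20 and −0.70 that were not called. It fell in shNS cells at 24 hr (−1.70 ± 0.40, adjusted p = 0.00245) and 72 hr (−1.08, adjusted p = 0.0459), and its changes in shRUNX1 cells were −0.50 and −0.34, not called. EPHA2, an ephrin A receptor common in epithelia, rose in shRUNX1 cells at 8 and 24 hr (1.29 and 0.94) and had a change of 0.52 at 72 hr, and in shNS cells it rose by 1.19, 1.08 and 0.91. EPHA1 fell at 72 hr, by 1.47 in shRUNX1 cells and by 1.05 in shNS cells. EPHA5 and EPHA8 were called in no comparison.

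**Figure D3:**
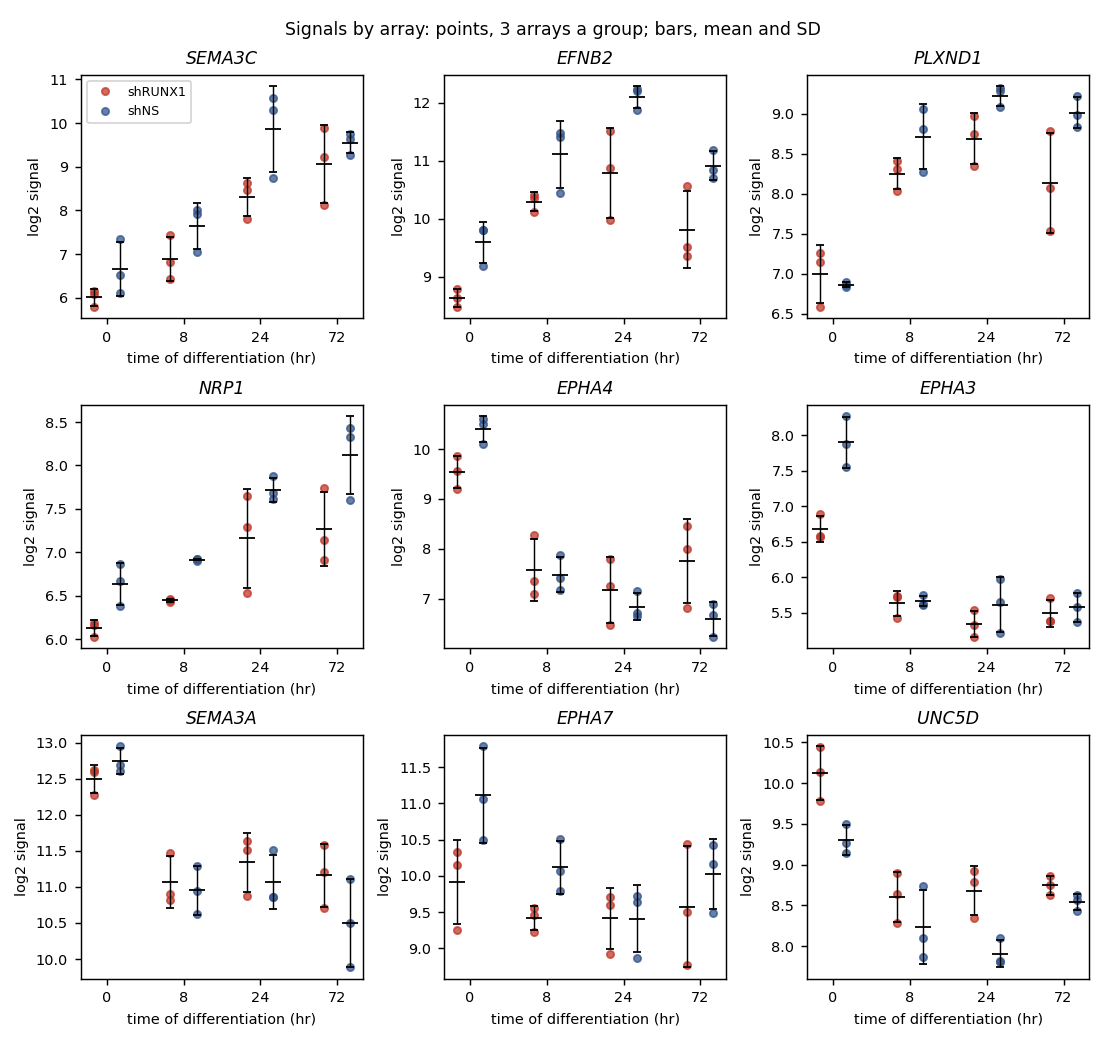
Log2 signal (y axis) of 9 genes in every array by time of differentiation (x axis, hr), shRUNX1 cells in red left of shNS cells in blue, with 3 points a group and the mean and SD as bars. EPHA3 lies apart between the arms at 0 hr only, and the EFNB2 arrays of the arms do not overlap at any of the 4 times.

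Of the ligands, EFNB2 rose in both arms. EFNB2, ephrin-B2, marks arterial endothelium and is a ligand of EPHB4 and EPHA4. Its signals in shRUNX1 cells were 8.79, 8.48 and 8.64 at 0 hr, 10.12, 10.36 and 10.42 at 8 hr, 9.98, 11.52 and 10.88 at 24 hr and 9.36, 10.57 and 9.51 at 72 hr. In shNS cells they were 9.80, 9.80 and 9.19 at 0 hr, 11.47, 11.41 and 10.44 at 8 hr, 12.20, 12.23 and 11.87 at 24 hr and 10.85, 11.19 and 10.70 at 72 hr. The plot of signals by array shows that the mean of both arms was highest at 24 hr and that the shRUNX1 arrays lay under the shNS arrays at each of the 4 times. EFNB2 rose by 1.66, 2.16 and 1.18 at 8, 24 and 72 hr in shRUNX1 cells and by 1.51, 2.50 and 1.31 in shNS cells (SE 0.34 each). Between the arms the difference was −0.96, −0.81, −1.31 and −1.10 at 0, 8, 24 and 72 hr, with adjusted p of 0.116, 0.54, 0.096 and 0.0785, so that no call was made. EFNB2 was the only member lower in every shRUNX1 array than in every shNS array at all 4 times (1.82% of the members), as were 0.584% of all features. SEMA3B, SEMA4A and UNC5D lay higher without overlap at 3 times, 5.45% of the members, and 2.1% of all features lay so at 3 or 4 times.

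Of the 5 ephrin A ligands, EFNA4 fell and EFNA5 rose in shRUNX1 cells, and EFNA2 rose in shNS cells. EFNA4 fell in shRUNX1 cells at 8 and 24 hr (−0.88 and −0.66), with changes of −0.55 and −0.11 in shNS cells that were not called. At 0 hr its signals were 8.53, 8.30 and 8.25 in shRUNX1 cells, against 7.47, 7.80 and 7.80 in shNS cells, which did not overlap (0.67 ± 0.20, adjusted p = 0.0772). EFNA5 rose in shRUNX1 cells at 72 hr (0.82 ± 0.26, adjusted p = 0.0396) and had a change of −0.39 in shNS cells (adjusted p = 0.305). Its signals at 72 hr were 10.79, 10.12 and 10.77 in shRUNX1 cells, against 10.08, 9.59 and 9.91 in shNS cells, apart without overlap but not called between the arms (0.70, adjusted p = 0.137). With the block by letter, this difference was called (1.20, adjusted p = 0.0112). In that fit the arm difference averaged over the times rests on letter C alone. EFNA2 rose in shNS cells at 24 hr (0.80). EFNA1 and EFNA3 were called in no comparison.

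SEMA3C, PLXND1 and NRP1 rose in both arms, a secreted semaphorin with a plexin and a neuropilin that can form its receptor. SEMA3C had signals of 6.16, 6.09 and 5.79 at 0 hr, 6.82, 6.43 and 7.44 at 8 hr, 7.81, 8.48 and 8.62 at 24 hr and 8.12, 9.22 and 9.88 at 72 hr in shRUNX1 cells. In shNS cells they were 6.53, 7.34 and 6.12 at 0 hr, 7.91, 8.00 and 7.04 at 8 hr, 10.30, 10.57 and 8.74 at 24 hr and 9.74, 9.27 and 9.64 at 72 hr. Every array of 24 and 72 hr lay above every array of 0 hr. SEMA3C rose by 2.29 and 3.06 at 24 and 72 hr in shRUNX1 cells and by 3.21 and 2.89 in shNS cells (SE 0.45), which is 8.35-fold at 72 hr in shRUNX1 cells and 9.24-fold at 24 hr in shNS cells. At 24 hr the arms did not overlap (−1.57, adjusted p = 0.118).

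PLXND1, plexin D1, guides vessels and axons. Its signals were 7.15, 6.59 and 7.26 at 0 hr, 8.31, 8.41 and 8.03 at 8 hr, 8.34, 8.74 and 8.98 at 24 hr and 7.54, 8.78 and 8.07 at 72 hr in shRUNX1 cells. PLXND1 in shNS cells had 6.90, 6.86 and 6.84 at 0 hr, 9.06, 8.81 and 8.27 at 8 hr, 9.31, 9.28 and 9.08 at 24 hr and 8.84, 9.22 and 8.98 at 72 hr. The shRUNX1 arrays lay under the shNS arrays at 24 and 72 hr. PLXND1 rose by 1.25, 1.69 and 1.13 at 8, 24 and 72 hr in shRUNX1 cells and by 1.85, 2.36 and 2.15 in shNS cells (SE 0.25), and the arm difference at 72 hr was −0.88 (adjusted p = 0.0602).

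NRP1, neuropilin 1, is a co-receptor for class 3 semaphorins and for VEGF. Its signals were 6.19, 6.17 and 6.02 at 0 hr, 6.46, 6.43 and 6.46 at 8 hr, 6.54, 7.65 and 7.29 at 24 hr and 6.92, 7.75 and 7.15 at 72 hr in shRUNX1 cells. In shNS cells they were 6.67, 6.87 and 6.38 at 0 hr, 6.92, 6.91 and 6.93 at 8 hr, 7.68, 7.87 and 7.61 at 24 hr and 8.43, 8.33 and 7.60 at 72 hr. The shRUNX1 arrays were lower without overlap at 0 and 8 hr. NRP1 rose by 1.03 and 1.14 at 24 and 72 hr in shRUNX1 cells and by 1.08 and 1.48 in shNS cells. NRP2, its paralog, rose in shRUNX1 cells at 24 and 72 hr (0.76 and 0.61), and its changes in shNS cells were 0.43 and 0.58, that of 72 hr past the adjusted p but under the fold.

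SEMA3A, a secreted repellent of axons, fell in both arms. Its signals were 12.59, 12.27 and 12.61 at 0 hr, 10.82, 10.90 and 11.48 at 8 hr, 11.51, 10.87 and 11.64 at 24 hr and 11.58, 10.71 and 11.21 at 72 hr in shRUNX1 cells. SEMA3A in shNS cells had 12.68, 12.95 and 12.60 at 0 hr, 10.62, 10.95 and 11.29 at 8 hr, 11.51, 10.85 and 10.85 at 24 hr and 10.50, 9.88 and 11.11 at 72 hr. All later arrays lay under all arrays of 0 hr, and the arms overlapped at every time. The change at 8, 24 and 72 hr was −1.42, −1.15 and −1.33 in shRUNX1 cells and −1.80, −1.67 and −2.25 in shNS cells (SE 0.29), and at 72 hr SEMA3A was 4.75-fold lower in shNS cells than at 0 hr. SEMA3D, another secreted class 3 semaphorin, fell likewise, by 0.77, 1.18 and 1.31 in shRUNX1 cells and by 0.88, 1.08 and 1.48 in shNS cells. SEMA3E, a ligand of PLXND1, rose in shRUNX1 cells by 0.77, 0.64 and 0.65, and in shNS cells its changes were 0.51, 0.44 and 0.38, past the adjusted p but under the fold.

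Of the 8 membrane-bound semaphorins, SEMA4D, SEMA5A and SEMA4A fell, SEMA7A rose and 4 were called in no time course. SEMA4D, a ligand of PLXNB1, fell by 0.89, 0.97 and 0.61 at 8, 24 and 72 hr in shRUNX1 cells and by 0.70, 0.92 and 0.62 in shNS cells. SEMA5A fell by 1.36 and 1.49 at 8 and 24 hr in shRUNX1 cells, with −0.63 at 72 hr (adjusted p = 0.0652), and by 1.31, 1.55 and 0.86 in shNS cells. SEMA7A, which is held by a lipid anchor and binds PLXNC1, rose in shRUNX1 cells at 24 hr (0.91) and had changes of 0.77 and 0.16 at 8 and 72 hr, and it rose by 0.95, 1.30 and 0.96 in shNS cells. The SEMA7A arm difference at 72 hr was called with the block by letter (−1.15, adjusted p = 0.0316). Its average over the times in that fit again rests on letter C alone. SEMA4A fell at 24 hr, by 0.66 in shRUNX1 cells and by 0.79 in shNS cells. At 72 hr SEMA4A was higher in every shRUNX1 array than in every shNS array, with a difference of 0.53 (adjusted p = 0.0223) that was under the fold threshold.

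Plexins other than PLXND1 had smaller differences. PLXNA2, a plexin that works with neuropilins, rose in shNS cells at 24 and 72 hr (0.83 and 0.72), with 0.50 and 0.54 in shRUNX1 cells, and PLXNB1, the receptor of SEMA4D, fell in shNS cells at both times (−0.61 each), with −0.40 and −0.48 in shRUNX1 cells. These 4 shRUNX1 values passed the adjusted p but were under the fold.

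Of the slit and robo genes, ROBO1 and ROBO2 fell and SLIT3 rose. ROBO1, a slit receptor, fell by 1.10, 1.24 and 1.67 at 8, 24 and 72 hr in shRUNX1 cells and by 0.79, 0.84 and 1.18 in shNS cells (SE 0.19). ROBO2, its paralog, fell by 0.74 and 1.03 at 8 and 72 hr in shRUNX1 cells, with −0.55 at 24 hr, and by 0.72, 0.75 and 1.02 in shNS cells. SLIT3, a secreted ligand of the robos, rose in shNS cells at 24 and 72 hr (1.05 and 1.02), where its changes in shRUNX1 cells were 0.26 and 0.36 (adjusted p = 0.35 and 0.19). At 24 hr the SLIT3 signals were 6.23, 6.33 and 6.52 in shRUNX1 cells, against 7.30, 7.18 and 6.54 in shNS cells, lower in every shRUNX1 array (−0.65, adjusted p = 0.108). SLIT1, SLIT2, ROBO3 and ROBO4 were called in no comparison.

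Of the netrin receptors, UNC5D fell in both arms from a level that differed between them at 0 hr. UNC5D, a receptor through which netrins repel, had signals of 10.14, 9.78 and 10.45 at 0 hr, 8.29, 8.64 and 8.90 at 8 hr, 8.92, 8.34 and 8.78 at 24 hr and 8.86, 8.75 and 8.63 at 72 hr in shRUNX1 cells. In shNS cells they were 9.15, 9.27 and 9.50 at 0 hr, 7.86, 8.09 and 8.74 at 8 hr, 7.80, 7.82 and 8.10 at 24 hr and 8.62, 8.43 and 8.57 at 72 hr. The shRUNX1 arrays were higher without overlap at 0, 24 and 72 hr, and the arms overlapped at 8 hr. At 0 hr UNC5D was 1.76-fold higher in shRUNX1 cells (0.82 ± 0.21, adjusted p = 0.0434), and the difference at 24 hr was 0.78 (adjusted p = 0.0999). The call at 0 hr ended under 7 of the alternatives, among them the fit to all transcript clusters (adjusted p = 0.0894), a block by experiment letter (0.60, adjusted p = 0.113), the methods' ANOVA (adjusted p = 0.293) and the omission of shNS replicate 1 or 2 or shRUNX1 replicate 1 or 3 of 0 hr (adjusted p = 0.125, 0.179, 0.204 and 0.182). UNC5D fell by 1.52, 1.44 and 1.38 at 8, 24 and 72 hr in shRUNX1 cells and by 1.07, 1.40 and 0.76 in shNS cells. UNC5B fell in shRUNX1 cells at 24 hr (−0.60) and UNC5C in shNS cells at 72 hr (−0.85). NTN1, NTN4, UNC5A and DCC were called in no comparison.

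**Figure D4:**
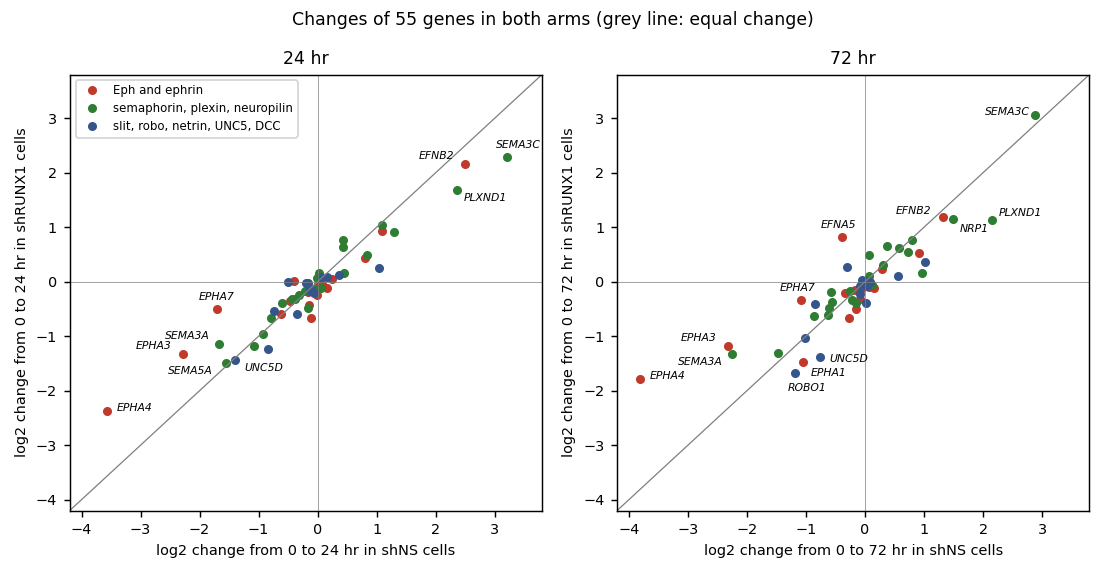
Log2 change of the 55 genes from 0 to 24 hr (left) and from 0 to 72 hr (right), in shRUNX1 cells (y axis) against shNS cells (x axis), coloured by family, with the grey line of equal change. At 72 hr EPHA4 changed by −1.79 in shRUNX1 cells and −3.81 in shNS cells, above the line, and PLXND1 by 1.13 and 2.15, below it.

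The plot of changes in both arms places EPHA4, EPHA3 and SEMA3A, which fell, above the line of equal change and PLXND1, which rose, below it, at 24 and 72 hr. At 72 hr the calls between the arms depended on single arrays, and most members were called without shRUNX1 replicate 2. In replicates 1, 2 and 3 of shRUNX1 cells EPHA4 was 8.45, 6.82 and 7.99, against 6.67, 6.23 and 6.89 in shNS cells. EFNB2 was 9.36, 10.57 and 9.51 in shRUNX1 cells, against 10.85, 11.19 and 10.70 in shNS cells. EPHA2 was 8.02, 9.11 and 8.24 in shRUNX1 cells, against 9.15, 9.21 and 8.98 in shNS cells. For all 3 genes replicate 2 of the shRUNX1 cells lay nearest to the shNS arrays, while for SEMA4A replicate 1 did (6.13, against 6.22 in replicate 2). Without shRUNX1 replicate 2, 10 members were called between the arms at 72 hr and 5.67% of all features were, in place of 0 members and 1.54%. Of them EPHA4 (1.62), EFNA5 (0.92) and SEMA4A (0.59) were higher in shRUNX1 cells, and EFNB2 (−1.48), PLXND1 (−1.21), NRP1 (−1.09), SEMA7A (−1.01), EPHA2 (−0.98), DCC (−0.67) and PLXNA2 (−0.59) were lower. The change of the arm difference to 72 hr was then called for EPHA4 (2.49), EFNA5 (1.43), EPHA3 (1.19) and PLXND1 (−1.34), with 3.02% of all features called. Fewer were called at 72 hr between the arms without shRUNX1 replicate 1 (1 member, all features 0.0434%) or shNS replicate 3 (4 members, all features 3.59%) of that time. Without shNS replicate 1 or 2 or shRUNX1 replicate 3 of that time, 0 members were called (all features 0.0592, 0.0237 and 0.0513%). The change of the arm difference gave 1 member without shRUNX1 replicate 2 (all features 2.04%) or shNS replicate 3 (all features 0.197%) of 0 hr.

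Mean marker signals of the mesenchymal and neural sets lay apart between the arms at 0 and 72 hr, and those of the endothelial and neural crest sets overlapped. Those of the pluripotent set overlapped at 0 hr. At 72 hr they lay apart narrowly, with a lowest value of 12.66 in shRUNX1 cells and a highest of 12.65 in shNS cells. The mean linear signal of 6 mesenchymal markers, as log2, was 11.36, 12.30 and 11.45 in shRUNX1 cells at 72 hr, against 12.52, 12.66 and 12.35 in shNS cells, and at 0 hr it was 9.47 to 9.71 in shRUNX1 cells and 9.72 to 10.46 in shNS cells. Of these markers 1 was called at 72 hr, POSTN, which was lower (median difference −0.69), and 2 at 0 hr, THY1 higher and VIM lower in shRUNX1 cells (median −0.03). The brightest markers weigh most in such a mean, and the markers named here were chosen after their values were seen. At 0 hr VIM averaged 11.61 in shRUNX1 cells, against 12.55 in shNS cells, and THY1 9.97 in shRUNX1 cells, against 9.04 in shNS cells. The mean linear signal of 6 pluripotent markers at 72 hr was 13.52, 12.66 and 13.19 in shRUNX1 cells, against 12.64, 12.38 and 12.65 in shNS cells. Of these markers 0 were called between the arms at 72 hr (median difference 0.51). SOX2, LIN28A, DNMT3B and CRIPTO averaged higher in shRUNX1 cells. NANOG averaged lower (10.94, against 11.92 in shNS cells), as did POU5F1 (11.93, against 12.07). For 6 neural markers the mean linear signal was 7.47 to 7.60 in shRUNX1 cells and 8.26 to 8.52 in shNS cells at 0 hr, and 8.23 to 8.44 in shRUNX1 cells and 9.03 to 10.05 in shNS cells at 72 hr. At 0 hr 0 neural markers were called (median −0.24), and at 72 hr 1 was called higher and 1 lower (median 0.09). STMN2 averaged 9.15 in shRUNX1 cells at 72 hr, against 11.89 in shNS cells, and MAP2 9.59 in shRUNX1 cells, against 8.10 in shNS cells. For 5 endothelial markers the mean linear signal was 9.07 to 10.37 in shRUNX1 cells and 8.63 to 9.29 in shNS cells at 0 hr, and 7.65 to 8.26 in shRUNX1 cells and 7.58 to 7.84 in shNS cells at 72 hr. Of the endothelial markers 0 were called at 0 hr (median −0.00), where KDR averaged 11.99 in shRUNX1 cells, against 10.95 in shNS cells, and TEK 7.86 in shRUNX1 cells, against 8.40 in shNS cells. At 72 hr 1 was called, CDH5, which was lower in shRUNX1 cells (median 0.18). For the 4 neural crest markers the mean was 5.61 to 5.99 in shRUNX1 cells and 5.42 to 5.97 in shNS cells at 72 hr. The part of these markers in the member differences was not tested, and in bulk RNA fewer cells of a type and less RNA per cell cannot be told apart.

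Partners of these receptors, mostly intracellular, such as adaptors, kinases and actin-binding proteins, were followed as a list of 56 effector genes, of which 52 were measured. More of them rose than fell. In shRUNX1 cells 9 rose and 4 fell at 8 hr (all features 3.73% and 3.09%), 10 rose and 3 fell at 24 hr (5.05% and 5.62%), and 4 rose and 0 fell at 72 hr (3.62% and 3.72%). In shNS cells 12 rose and 5 fell at 8 hr (all features 4.59% and 3.72%), 13 rose and 4 fell at 24 hr (7.58% and 7.97%), and 11 rose and 4 fell at 72 hr (7.08% and 7.73%). The median change was 0.20, 0.15 and 0.08 in shRUNX1 cells and 0.20, 0.19 and 0.09 in shNS cells, where that of all features lay between −0.02 and 0.01. Between the arms 2 effectors were called, both at 72 hr (all features 1.54%). VASP, which promotes actin filament growth, had 9.40, 9.89 and 9.14 in shRUNX1 cells, against 10.18, 10.42 and 9.93 in shNS cells (−0.70 ± 0.17, adjusted p = 0.0354). ARHGEF12, which binds B plexins, had 10.09, 10.48 and 10.02 in shRUNX1 cells, against 10.92, 11.01 and 10.72 in shNS cells (−0.69 ± 0.12, adjusted p = 0.0155). Both were lower in every shRUNX1 array. When replicate 1 or 2 of shNS cells or replicate 1 or 3 of shRUNX1 cells at 72 hr was left out, the adjusted p was 0.108, 0.203, 0.164 and 0.193 for VASP and 0.0636, 0.124, 0.086 and 0.102 for ARHGEF12, all over 0.05, so that neither was called.

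Of 20 further family genes, all measured, 1 rose and 2 fell at 8 hr, 1 rose and 3 fell at 24 hr, and 1 rose and 0 fell at 72 hr in shRUNX1 cells, where 6.82, 10.7 and 7.34% of all features were called in either direction. In shNS cells 1 rose and 5 fell at 8 hr, 1 rose and 6 fell at 24 hr, and 2 rose and 6 fell at 72 hr, where 8.31, 15.6 and 14.8% of all features were called. Between the arms 1 was called at 0 hr (all features 0.971%) and 1 at 72 hr (all features 1.54%). RGMB, a co-receptor for BMPs that binds neogenin, was lower in shRUNX1 cells at 0 hr, with 7.28, 7.42 and 7.31, against 8.45, 8.67 and 7.54 in shNS cells (−0.88 ± 0.19, adjusted p = 0.0266). SEMA6D, a membrane-bound semaphorin that binds PLXNA1, was called higher in shRUNX1 cells at 72 hr, with 9.33, 7.74 and 8.76, against 6.23, 5.91 and 8.15 in shNS cells (1.84 ± 0.46, adjusted p = 0.0398). The arms lay apart for RGMB, and they overlapped for SEMA6D. RGMB was not called when replicate 1 or 2 of shNS cells or replicate 1 or 3 of shRUNX1 cells at 0 hr was left out (adjusted p = 0.0893, 0.154, 0.17 and 0.111). SEMA6D was not called with the same replicates of 72 hr left out (adjusted p = 0.145, 0.231, 0.209 and 0.159).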

How the data were processed

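Total RNA of 24 samples was hybridised to Affymetrix human transcriptome arrays. The values the authors deposited are log2 signals per transcript cluster, normalized with RMA per the submitters' processing notes, after work in Expression Console (Affymetrix) and in version 1.0.0.234 of the Transcriptome Analysis Console, and no further normalization was applied. An array gives no read depth, and precision is limited by the number of arrays.

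All 25324 clusters with a gene symbol (1105 of them with 2 symbols, 438 with 3 or more) were modelled by limma 3.58.1 in R 4.3.3. The model had 8 group means, 16 residual degrees of freedom and moderated variances that follow the intensity, and tests were two-sided. It was tested on simulated data. Figures were drawn with matplotlib 3.10.9. The members and lists were chosen with earlier results of these data known. Any member could be named. Values by array were given for members called between the arms and for those with the 4 largest called rises and 4 largest called falls from 0 hr in shNS cells (SEMA3C, EFNB2, PLXND1, NRP1, EPHA4, EPHA3, SEMA3A, EPHA7). Other values by array were chosen after they were seen. Outside the members, list genes called between the arms were named. Alternatives were quantile normalization, median centring, other feature sets, no variance trend, array weights, replicate blocks, the methods' ANOVA and each array left out in turn. With adjusted p this ANOVA called 0 features between the arms at every time. The paper reports changed genes at each time of differentiation with an FDR threshold, so its counts were not reproduced. Unadjusted p in limma and no fold threshold were tried after seeing the data.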

Additional observations from a re-analysis of the deposited data

How the results depend on the processing

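None of the 21 single-gene calls followed changed direction under the alternatives. The median change of all features, near 0, changed sign in shRUNX1 cells with median centring (0.01, 0.04 and 0.03 at 8, 24 and 72 hr) and in shNS cells with quantile normalization (−0.01 at each time), while that of the members stayed under 0 in both. Percentages in parentheses are of all features. Of the counts of members called between the arms, that at 0 hr (2, 0.971%) was 1 with dim features left out (2.23%), 1 with all transcript clusters (0.193%), 8 with array weights (3.57%), 1 with a replicate block by experiment letter (1.78%), 0 with the methods' ANOVA and adjusted p (0%), 5 with its unadjusted p (1.73%), 6 with unadjusted p in limma (2.83%) and 0 to 5 with each array left out (0.0355 to 3.58%). With 0 members called at 8 hr, the ANOVA with unadjusted p (0.561%) and limma with unadjusted p (0.865%) gave 1 each. With 0 at 24 hr, array weights gave 5 (3.53%), a replicate block by title number 2 (0.754%), the ANOVA with unadjusted p 2 (1.32%), unadjusted p in limma 4 (2.61%) and arrays left out 0 to 2. With 0 at 72 hr (1.54%), median centring gave 2 (2.15%), dim features left out 3 (4.62%), array weights 10 (5.85%), the block by title number 5 (3.04%), the block by letter 3 (3.06%), unadjusted p in limma 8 (4.83%), no fold threshold 1 (2.7%) and arrays left out 0 to 10, the 10 without shRUNX1 replicate 2 (5.67%). The change of the arm difference, with 0 called, gave 1 at 8 hr (1.2%) and 4 at 24 hr (2.15%) with unadjusted p, and at 72 hr 5 with array weights (4.45%), 2 with the block by letter (0.225%), 8 with unadjusted p (5.18%) and 0 to 4 with arrays left out. In the time courses of shRUNX1 cells the ANOVA with adjusted p called 4, 3 and 0 members at 8, 24 and 72 hr (2.9, 1.88 and 0%), against 14, 19 and 17 with limma, and arrays left out gave 12 to 15, 14 to 20 and 11 to 18. In shNS cells it called 7 at 8 hr (2.92%), against 13, and arrays left out gave 11 to 17, 20 to 21 and 15 to 23. The list genes called between the arms (4) were 7 with median centring, 7 with dim features left out, 1 with all transcript clusters, 16 with array weights, 7 with the block by letter, 0 with the ANOVA and adjusted p, 10 with unadjusted p in limma, 9 with no fold threshold and 1 to 11 with arrays left out. Of 21 calls of single genes followed, 13 were lost under at least 1 alternative, all 13 of them with the ANOVA and adjusted p, 4 with all transcript clusters and 2 with the block by letter. Arrays of one title number in both arms at the same time deviated together at an r of -0.04 to 0.35 over 12 pairs (median 0.145). For different numbers r was -0.38 to 0.21 over 24 pairs (median -0.06), and for letter C -0.31 to 0.21 over 4 pairs (median -0.10). Between times within an arm, the median for the same number was 0.135 in shRUNX1 cells and 0.28 in shNS cells, against -0.07 and -0.17 for different numbers. The numbers were not taken to pair the samples, and a block by number was fitted as an alternative. With dim features left out, 37 of the 55 members stayed in the fit. The cause of these differences was not tested.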
